A study of Euphorbia esula with 15 samples.

Results

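Gibberellin (GA) genes were followed in crown buds of leafy spurge (Euphorbia esula, 1 biotype), a perennial weed whose underground buds stay paradormant, that is, held back by signals from the shoot above. The genes were found through the deposited hormone annotation: a contig was taken when its hormone class was GA, and contig counts were summed per gene, a gene being a component of the de novo assembly. The class held 217 of 569227 contigs, and they fell in 71 of 223732 genes. A gene was kept when its mean normalized count was above 2 at any time point, which left 35 genes. Plants were grown in a greenhouse with an 18 h photoperiod. Their age is 4 months in the growth label and 3 months in the treatment label. They were moved to a growth chamber at 27 °C with a 16 h photoperiod, and the stem was then excised at soil level. Poly A RNA of crown buds was sequenced in 3 libraries at 0 h (paradormant buds) and 4 libraries each at 6, 24 and 72 h after excision, each from buds pooled over plants, so a replicate is a pool and not a plant. All groups shared the biotype, chamber and harvest hour, and none was treated with glyphosate.

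Gibberellins are diterpenoid hormones that promote stem elongation, and bud outgrowth in many perennials. Copalyl diphosphate synthase (CPS), ent-kaurene synthase (KS), ent-kaurene oxidase (KO) and ent-kaurenoic acid oxidase (KAO) make the early precursors, GA 20-oxidases and GA 3-oxidases make the bioactive forms, and GA 2-oxidases inactivate them. Bioactive GA binds the soluble receptor GID1. The complex captures DELLA proteins, which restrain growth, and the F-box proteins SLY1 and SLY2 (SNEEZY) direct them to degradation in Arabidopsis. Active GA signalling lowers transcripts of GA 20-oxidase, GA 3-oxidase and GID1 and raises those of GA 2-oxidase in Arabidopsis, a feedback that runs through the DELLA proteins.

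The annotation placed the 35 genes in 4 functions: 11 of 28 genes in synthesis, 6 of 13 in catabolism, 6 of 10 in positive signalling and 12 of 20 in negative signalling passed the filter. Synthesis held CPS, KS with 4 genes, KO, KAO1 with 2, GA20ox1 and GA3ox1 with 2. Catabolism held GA2ox1, GA2ox2 with 2 genes, GA2ox6 and GA2ox8 with 2. Positive signalling held GID1A, GID1B with 3 genes, SLY1 and SLY2. Negative signalling held 11 genes labelled as DELLA (RGA with 3 genes, RGA2 with 4, RGL1 with 2 and RGL3 with 2) and SPY, an O-linked sugar transferase that restrains GA responses. RGA2 is the annotation's name for the gene also called GAI. Of the 36 genes left out, 17 had no count in any library and each of the other 19 had at most 18 expected counts over all libraries. Nearest the threshold, KAO1 comp120845_c1 was kept with a highest mean of 2.57 normalized counts, and GA2ox8 comp115895_c0 was left out with 1.60.

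A label is a best match to an Arabidopsis protein and not a proof of function. In 31 of the 35 genes at least 90% of the gene's counts lay on GA contigs, but in RGA2 comp131931_c0 the share was 0.75%, the rest lying on contigs of a ubiquitin-conjugating enzyme, and in RGL3 comp117024_c0 it was 10.1%. The contigs labelled GA2ox8 that held most of that label's counts had a 20-oxidase as their best database hit, so their placement in catabolism is uncertain. RSEM shares reads among similar contigs, and the counts of close copies such as the GID1B genes are less certain than their errors show. Gene lengths were not used, so levels are compared between time points and not between genes.

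The study also designed RT-qPCR primers to transcripts of this pathway, and these are the sequences available here for the receptor and DELLA genes. They are shown to identify the targets. The pairs carry an Arabidopsis identifier and were not placed on a contig. The RGL2 pair carries the identifier of GAI (AT1G14920).
GID1B (AT3G63010) forward: tctagagcgcaaagtgaacg
GID1B (AT3G63010) reverse: ttagcagaggaatgagtgaagc
RGA1 (AT2G01570) forward: cgggaattattttcaacgacgat
RGA1 (AT2G01570) reverse: ctgcgcaagctaacagagtatgg
RGL2 (AT1G14920) forward: cttgaacgccttgaaactgctatg
RGL2 (AT1G14920) reverse: acctccgtcaattgattctgttcc

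Library totals ranged from 1847115 to 8766393 expected counts, and the totals of the 4 time points overlapped. Their means were 4804947 at 0 h, 4404144 at 6 h, 6489709 at 24 h and 3483939 at 72 h. Depth was thus greatest on average at 24 h and least at 72 h, which bears on how many genes could be called. Over the 21 replicate pairs the chi-square of gene counts was 1.40 to 5.75 times its degrees of freedom, so no 2 libraries agreed within sampling noise. At 0 h, replicates 1 and 2 were closest, at 1.40, while replicate 3 stood at 5.26 and 3.63 from them. Each call of a named gene that ends without 0 h replicate 3 is given below. The 5 shoot meristem markers looked up, among them STM, KNAT1 and ANT, were all detected in every library, and their summed level was 1263 to 1409 normalized counts in 0 h buds, 1329 to 1570 in 6 h buds, 1328 to 1545 in 24 h buds and 1517 to 1699 in 72 h buds. CASP markers of root endodermis summed to 0 to 4.57 normalized counts, and the 4 floral organ markers summed to 9.94 to 27.5 normalized counts, nearly all of it AP1 and AP3, since AG and PI stayed at 0 to 1.63. In bulk buds a lower level cannot be told apart from fewer cells of a type or less RNA per cell.

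Median-of-ratios size factors turned counts into normalized counts, and rounded counts of all 30231 genes above the filter were compared by edgeR's quasi-likelihood test. A gene was called at a Benjamini-Hochberg adjusted p under 0.05. Over the 4 time points, 14 of the 35 GA genes were called, or 40.0%, against 42.0% of all genes tested. At 6 h against 0 h, 4 rose and 1 fell, 5 of 35 in all, where the share of all genes was 11.5%. At 24 h against 0 h, 4 rose and 4 fell, 8 of 35, against 32.5% of all genes. At 72 h against 0 h, 1 rose and 2 fell, 3 of 35, against 9.94%. The shares of GA genes called, 14.3, 22.9 and 8.57%, lay near or below those backgrounds, and the description therefore rests on which genes moved and when. Against 0 h, the GA genes had median log2 fold changes of 0.04, -0.11 and -0.20 by 6, 24 and 72 h, and all genes had -0.02, 0.04 and 0.01.

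**Figure D1:**
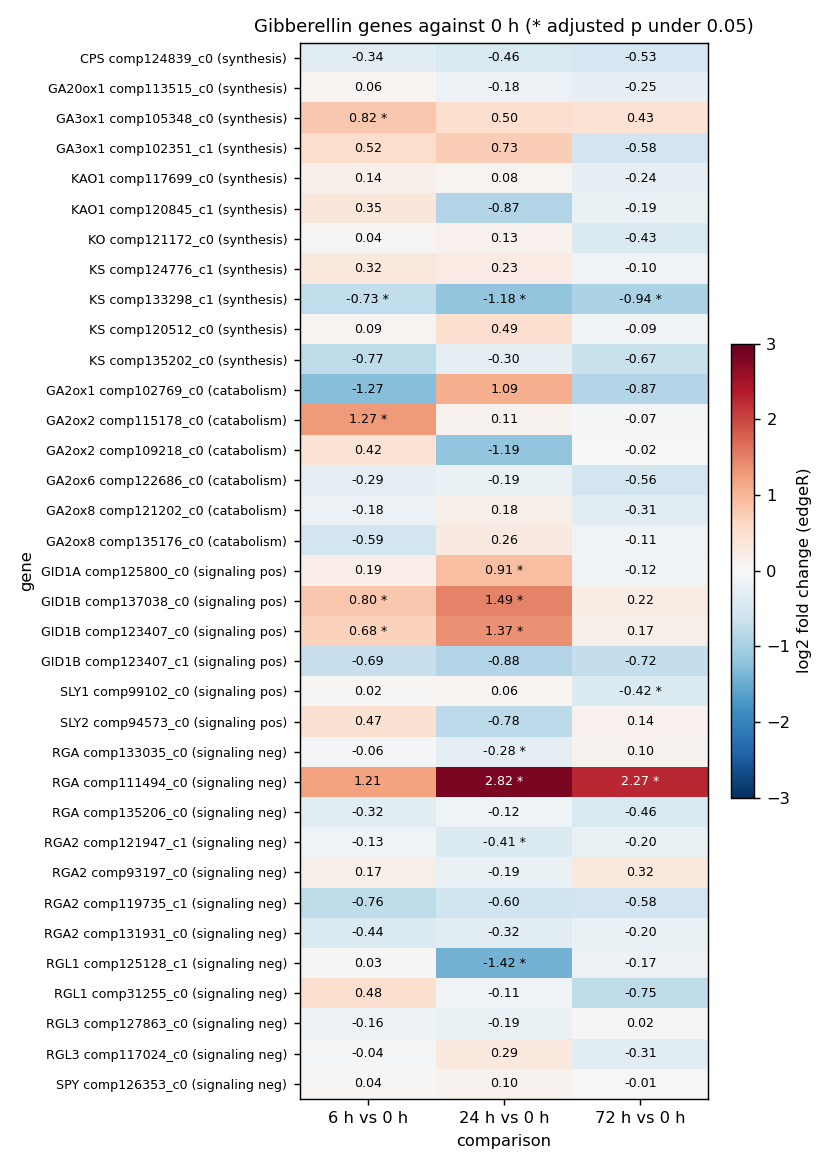
Log2 fold changes of the 35 gibberellin genes at 6, 24 and 72 h against 0 h (columns; edgeR), by gene and annotated function (rows), where red is higher and blue lower than 0 h and an asterisk marks an adjusted p under 0.05. Asterisks mark 5, 8 and 3 genes in the columns of 6, 24 and 72 h, and the 3 well-covered GID1 rows are red at 24 h and pale at 72 h.

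The GA receptors rose and fell again, and 3 of their genes had the lowest adjusted p over the 4 time points among the 35 (edgeR, 1.50e-10 to 1.75e-09). Both well-covered GID1B genes rose by 6 h, and all 3 well-covered receptor genes rose at 24 h and overlapped the paradormant buds again at 72 h. Summed over the 4 receptor genes, the level was 595 ± 17.2 normalized counts in 0 h buds, 808 ± 56.0 in 6 h buds, 1323 ± 62.8 in 24 h buds and 606 ± 87.9 in 72 h buds (SD, n = 3, 4, 4 and 4).

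GID1A comp125800_c0 had 347, 313 and 365 normalized counts in 0 h buds, 401, 367, 460.1 and 352 in 6 h buds, 574, 674, 683 and 648 in 24 h buds and 336, 299.6, 369 and 254 in 72 h buds. Each 24 h library lay above every other library. Its log2 fold change was 0.91 ± 0.10 (SE) at 24 h against 0 h (edgeR, adjusted p = 8.69e-08), and 0.19 ± 0.11 at 6 h and -0.12 ± 0.11 at 72 h, neither of which passed the test.

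GID1B comp137038_c0 had 140.1, 128 and 118 normalized counts in 0 h buds, 257, 258, 169.7 and 196 in 6 h buds, 352, 349, 364 and 383 in 24 h buds and 181, 147, 156 and 113 in 72 h buds. The 0, 6 and 24 h libraries formed 3 ranges without overlap, each above the one before, while the 72 h range overlapped that of 0 h. Against 0 h the log2 fold change was 0.80 ± 0.13 at 6 h (edgeR, adjusted p = 9.85e-05) and 1.49 ± 0.13 at 24 h (adjusted p = 6.19e-10), and at 72 h it was 0.22 ± 0.14 (adjusted p = 0.381).

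GID1B comp123407_c0 had 113, 131 and 121 normalized counts in 0 h buds, 189, 224, 165 and 183 in 6 h buds, 336, 250.2, 314 and 357 in 24 h buds and 151, 114, 155 and 137 in 72 h buds. Its libraries were ordered as those of the other GID1B gene, again with no overlap among 0, 6 and 24 h. The log2 fold change against 0 h was 0.68 ± 0.14 at 6 h (edgeR, adjusted p = 0.000821) and 1.37 ± 0.13 at 24 h (adjusted p = 3.19e-09). The third GID1B gene, comp123407_c1, shares the first part of its identifier with this one and had 0 to 7.85 normalized counts per library, too few to show such a change.

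Between the later time points, all 3 well-covered receptor genes were higher at 24 h than at 6 h, with log2 fold changes of 0.69 to 0.72, and lower at 72 h than at 24 h, with -1.03 to -1.27. Of the 35 GA genes, 5 rose and 8 fell at 24 h against 6 h, where 25.2% of all genes were called (11.8% higher, 13.3% lower). The count that fell was 4 without 6 h replicate 2 and 5 without 6 h replicate 4 or without replicate 1, 2 or 3 of 24 h. At 72 h against 24 h, 4 rose and 8 fell, where 32.4% of all genes were called (16.7% higher, 15.7% lower). At 72 h against 6 h, where 13.5% of all genes were called (7.39% higher, 6.13% lower), 1 of the 35 GA genes rose and 6 fell, and the 3 receptor genes were lower by log2 values of -0.31 to -0.58. The gene that rose was RGA comp111494_c0, at 1.06 ± 0.36 in log2 units (edgeR, adjusted p = 0.0479), and its call ended under TMM, DESeq2, limma, no filter and a fit of these 2 time points alone (adjusted p = 0.0508 to 0.193). It also ended without any 1 of 11 libraries, which were all 4 of 24 h, 0 h replicate 1, 6 h replicates 1, 2 and 4 and 72 h replicates 1 to 3 (adjusted p = 0.0508 to 0.128). For GID1A comp125800_c0 the call at 72 h against 6 h ended without any 1 of 6 h replicates 1 and 3 and 72 h replicates 2 and 4, with log2 values of -0.30, -0.24, -0.28 and -0.24 (edgeR, adjusted p = 0.0901 to 0.158), and for GID1B comp123407_c0 without 6 h replicate 2 or 72 h replicate 2, with -0.40 and -0.38 (adjusted p = 0.0629 and 0.0929).

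**Figure D2:**
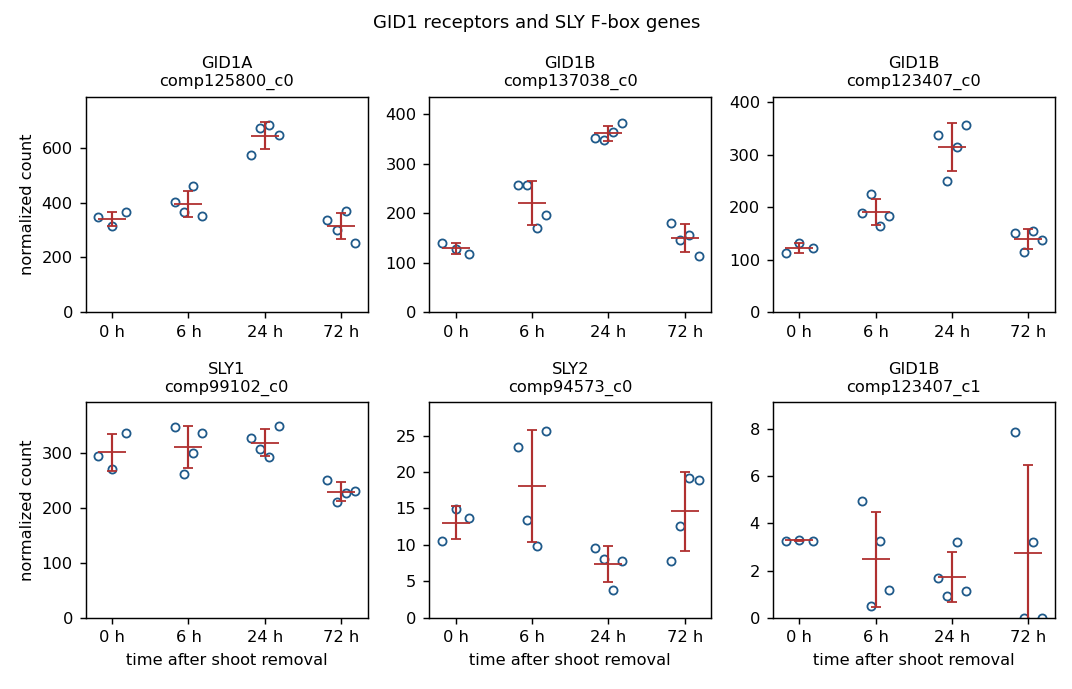
Normalized counts of 4 GID1 receptor genes and 2 SLY F-box genes (vertical axes) against hours after shoot removal (0, 6, 24 and 72 h; horizontal axes). Circles are libraries and red marks the mean ± SD (axes start at 0, which cuts the lower bar for GID1B comp123407_c1 at 72 h); GID1A and the 2 well-covered GID1B genes peak at 24 h, at means of 645, 362 and 314.

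The F-box genes did not follow the receptors. SLY1 comp99102_c0 had 295, 272 and 337 normalized counts in 0 h buds, 347, 263, 300.2 and 336 in 6 h buds, 327, 307, 292 and 349 in 24 h buds and 251, 211, 226 and 232 in 72 h buds. The 72 h libraries lay below all others. At 72 h against 0 h its log2 fold change was -0.42 ± 0.11 (edgeR, adjusted p = 0.0127), but without 0 h replicate 3 it was -0.32 (adjusted p = 0.117) and without 72 h replicate 2 it was -0.36 (adjusted p = 0.0802). The summed shoot meristem markers had their highest mean, 1578 normalized counts, in the same 72 h libraries. The range of the sum at 72 h overlapped those at 6 and 24 h. The markers did not rise together. ANT and KNAT1 had their highest means at 72 h, at 682 and 593 normalized counts. STM had a mean of 180 at 0 h and 176 at 72 h, and CUC2 had 21.0 at both. CLV1 was highest at 24 h, with a mean of 149, and had 107 at 72 h. The part of the markers in the SLY1 result was not tested.

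SLY2 comp94573_c0, a homolog of SLY1, had 10.5, 14.9 and 13.7 normalized counts in 0 h buds, 23.4, 13.4, 9.79 and 25.7 in 6 h buds, 9.64, 8.13, 3.86 and 7.81 in 24 h buds and 7.85, 12.6, 19.1 and 18.9 in 72 h buds. All 24 h libraries were below those of 0 h and 6 h. The log2 difference was -1.25 ± 0.32 at 24 h against 6 h (edgeR, adjusted p = 0.00448) and -0.78 ± 0.36 at 24 h against 0 h, which did not pass (adjusted p = 0.103). Over the 4 time points SLY2 comp94573_c0 was called (adjusted p = 0.0163), though not without 24 h replicate 3 (adjusted p = 0.0681) or 6 h replicate 4 (adjusted p = 0.0507). At 72 h against 24 h it was called higher, at 0.92 ± 0.35 in log2 units (edgeR, adjusted p = 0.0483). That call was weak and ended under TMM, DESeq2, limma and no filter (adjusted p = 0.0534 to 0.0862). It also ended without any 1 of 8 libraries (adjusted p = 0.0504 to 0.148).

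The summed DELLA level was lowest at 24 h, the time at which the receptors were highest, and 2 abundant genes, RGA comp133035_c0 and RGA2 comp121947_c1, carried most of it. By gene, 5 of the 11 DELLA-labelled genes had their lowest mean at 24 h, or 45.5%, where 27.4% of all genes did. For 1 of the 5, RGL3 comp127863_c0, the means at 6 and 24 h were nearly equal, at 17.5 and 17.1. Their log2 difference was -0.03 ± 0.24 (edgeR, adjusted p = 0.954). Of the 11, 3 fell and 1 rose at 24 h against 0 h, none was called at 6 h and 1 rose at 72 h. The background is 16.8% of all genes lower and 15.7% higher at 24 h. Asking also for a 1.5-fold change left 1 of the 3 that fell, RGL1 comp125128_c1. The summed level of the 11 genes was 1482 ± 68.4 normalized counts in 0 h buds, 1416 ± 88.1 in 6 h buds, 1211 ± 78.5 in 24 h buds and 1526 ± 117 in 72 h buds (SD, n = 3, 4, 4 and 4).

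RGA comp133035_c0, whose contigs carry RGA and RGA2 labels, had 883, 905 and 984 normalized counts in 0 h buds, 822, 869.9, 886 and 969.6 in 6 h buds, 727, 713, 799 and 807 in 24 h buds and 1036, 925, 931 and 1076 in 72 h buds. The 24 h libraries were below all others. The change was small, a log2 fold change of -0.28 ± 0.08 at 24 h against 0 h (edgeR, adjusted p = 0.00884), and without 0 h replicate 3 it was -0.23 (adjusted p = 0.0603). At 72 h against 24 h the gene was higher by 0.38 ± 0.08 on the log2 scale (adjusted p = 0.000303).

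RGA2 comp121947_c1 had 356, 443 and 376 normalized counts in 0 h buds, 359, 349, 314 and 399 in 6 h buds, 292, 258, 280.0 and 348 in 24 h buds and 375, 293, 341 and 366 in 72 h buds. The 24 h libraries were below those of 0 h and overlapped those of 6 and 72 h. The log2 fold change at 24 h against 0 h was -0.41 ± 0.11 (edgeR, adjusted p = 0.00338). Its call over the 4 time points (adjusted p = 0.0141) ended without 24 h replicate 2 (adjusted p = 0.0611).

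A second RGA2 gene, comp93197_c0, had 98.9, 99.4 and 92.5 normalized counts in 0 h buds, 113, 104, 103 and 113 in 6 h buds, 71.5, 88.5, 96.4 and 81.8 in 24 h buds and 124, 121, 108 and 128 in 72 h buds. It was not called against 0 h, with log2 values of 0.17 ± 0.12 at 6 h, -0.19 ± 0.12 at 24 h and 0.32 ± 0.13 at 72 h. It was higher at 72 h than at 24 h by 0.50 ± 0.12 in log2 units (edgeR, adjusted p = 0.000983).

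RGL1 comp125128_c1, another DELLA paralog, had 15.4, 18.2 and 10.5 normalized counts in 0 h buds, 9.87, 12.6, 16.3 and 19.9 in 6 h buds, 5.11, 5.42, 3.86 and 6.69 in 24 h buds and 9.82, 10.3, 14.4 and 18.9 in 72 h buds. Here too the 24 h libraries were below all others. Its log2 fold change at 24 h against 0 h was -1.42 ± 0.34 (edgeR, adjusted p = 0.0017), the largest fall among the DELLA-labelled genes, and at 72 h against 24 h it was 1.25 ± 0.35 (adjusted p = 0.00584).

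One gene labelled RGA went the other way. RGA comp111494_c0 had 1.62, 4.97 and 1.96 normalized counts in 0 h buds, 4.94, 5.67, 8.16 and 4.67 in 6 h buds, 19.3, 16.7, 16.1 and 19.0 in 24 h buds and 17.7, 10.3, 14.4 and 7.09 in 72 h buds. All 24 and 72 h libraries were above those of 0 h. Its log2 fold change against 0 h was 2.82 ± 0.40 at 24 h (edgeR, adjusted p = 2.08e-06) and 2.27 ± 0.45 at 72 h (adjusted p = 0.00113). The contig that holds its counts has a best database hit named no more closely than a transcription factor, whereas those of RGA comp133035_c0 and RGA2 comp121947_c1 and comp93197_c0 are DELLA proteins. Its Arabidopsis match is also weak, at an E value of 2e-07, against 5e-49 for RGA2 comp93197_c0 and 3e-56 for RGL1 comp125128_c1. The labels do not settle whether RGA comp111494_c0 encodes a DELLA protein.

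The other 6 DELLA-labelled genes were not called in any comparison. They were RGA comp135206_c0, RGA2 comp119735_c1 and comp131931_c0, RGL1 comp31255_c0, RGL3 comp127863_c0 and RGL3 comp117024_c0, with 0 to 31.9 normalized counts per library. Their labels are not all firm either. The best database hit of RGA2 comp131931_c0 is a GRAS family transcription factor, while those of the rest of the 6 are DELLA proteins. RGL3 comp117024_c0 has a weak Arabidopsis match, at an E value of 7e-13 for its most-counted GA contig. SPY comp126353_c0 was also called in no comparison. It had 593 to 606 normalized counts in 0 h buds, 580.4 to 654 in 6 h buds, 605 to 726 in 24 h buds and 565 to 615 in 72 h buds, and its log2 values against 0 h were 0.04, 0.10 and -0.01, each with an SE of 0.08.

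**Figure D3:**
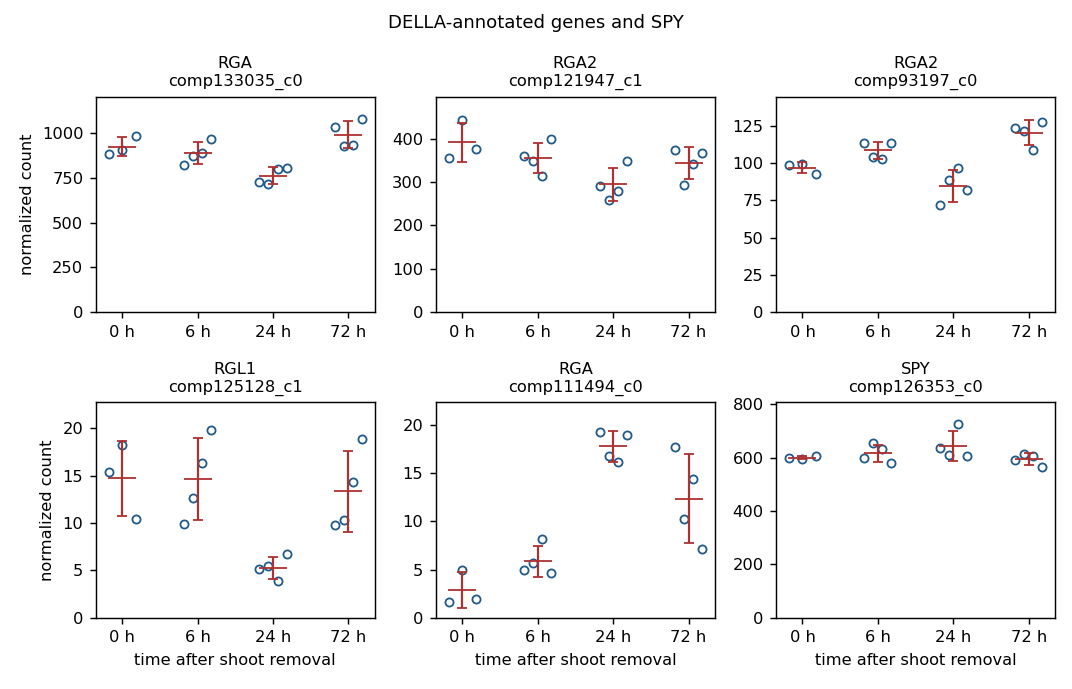
Normalized counts of 5 DELLA-labelled genes and SPY (vertical axes, from 0) against hours after shoot removal (0, 6, 24 and 72 h; horizontal axes); circles are libraries and red marks the mean ± SD. RGA comp133035_c0, RGA2 comp121947_c1 and comp93197_c0 and RGL1 comp125128_c1 have their lowest mean at 24 h (762, 294, 84.6 and 5.27), where RGA comp111494_c0 has its highest (17.8).

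Among the synthesis genes the lasting change was in 1 of 4 genes for ent-kaurene synthase, the enzyme that closes the ring system of ent-kaurene. KS comp133298_c1 had 160.4, 189 and 106 normalized counts in 0 h buds, 101, 98.0, 78.3 and 72.4 in 6 h buds, 68.1, 70.4, 65.0 and 51.3 in 24 h buds and 58.9, 87.9, 73.4 and 78.0 in 72 h buds. Every later library was below every 0 h library. The log2 fold change against 0 h was -0.73 ± 0.17 at 6 h (edgeR, adjusted p = 0.00301), -1.18 ± 0.16 at 24 h (adjusted p = 1.48e-06) and -0.94 ± 0.17 at 72 h (adjusted p = 0.000504). The 3 other KS genes were not called against 0 h, and KS comp124776_c1, the best covered of them, had log2 values of 0.32 ± 0.15, 0.23 ± 0.15 and -0.10 ± 0.16 at 6, 24 and 72 h.

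KO comp121172_c0, which oxidizes ent-kaurene, had 105, 97.8 and 97.5 normalized counts in 0 h buds, 86.4, 115, 101 and 106 in 6 h buds, 91.9, 122, 117 and 108 in 24 h buds and 68.7, 85.5, 62.2 and 70.9 in 72 h buds. The 72 h libraries were below all others. KO was lower at 72 h than at 24 h by a log2 value of -0.57 ± 0.13 (edgeR, adjusted p = 0.0012), and against 0 h the value of -0.43 ± 0.15 narrowly missed the threshold (adjusted p = 0.0579).

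GA 3-oxidase catalyses the last step to bioactive GA. GA3ox1 comp105348_c0 had 13.0, 11.6 and 22.9 normalized counts in 0 h buds, 21.0, 33.0, 29.4 and 33.9 in 6 h buds, 21.6, 26.6, 23.2 and 23.4 in 24 h buds and 27.5, 21.7, 27.1 and 14.2 in 72 h buds. The 6 h libraries were mostly the highest but overlapped 0 h, whose replicate 3 was above 1 of them. The log2 fold change at 6 h against 0 h was 0.82 ± 0.25 (edgeR, adjusted p = 0.0334). That call ended without 0 h replicate 1 or 2, at log2 values of 0.64 and 0.70 (adjusted p = 0.177 and 0.112), and without 6 h replicate 2 or 4, at 0.73 and 0.76 (adjusted p = 0.134 and 0.0772).

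GA3ox1 comp102351_c1 had 18.6, 8.29 and 7.20 normalized counts in 0 h buds, 18.5, 14.5, 26.1 and 11.7 in 6 h buds, 26.1, 18.1, 8.37 and 26.8 in 24 h buds and 7.85, 9.13, 6.38 and 4.72 in 72 h buds. The libraries were scattered at 0 and 24 h, low at 72 h, and not called apart from 0 h at any time. GA3ox1 comp102351_c1 was lower at 72 h than at 24 h by a log2 value of -1.31 ± 0.39 (edgeR, adjusted p = 0.00993). Its call over the 4 time points (adjusted p = 0.0321) ended without 24 h replicate 1 or 4 and without any 1 of the 72 h replicates (adjusted p = 0.0552 to 0.0798).

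The remaining synthesis genes, CPS comp124839_c0, GA20ox1 comp113515_c0, KAO1 comp117699_c0 and comp120845_c1 and KS comp135202_c0, were not called in any comparison. KAO1 comp117699_c0, with the most counts of the function, averaged 116 ± 39.0 normalized counts in 0 h buds, 135 ± 29.5 in 6 h buds, 125 ± 54.6 in 24 h buds and 98.9 ± 10.9 in 72 h buds (SD, n = 3, 4, 4 and 4). GA20ox1, whose enzyme is often limiting for bioactive GA, had log2 values of 0.06 ± 0.24, -0.18 ± 0.23 and -0.25 ± 0.25 at 6, 24 and 72 h against 0 h. As a group the 11 synthesis genes had their lowest mean at 72 h in 7 cases, or 63.6%, where 26.5% of all genes did. Their summed level was 574 ± 32.8 normalized counts in 0 h buds, 571 ± 43.7 in 6 h buds, 533 ± 57.0 in 24 h buds and 424 ± 55.8 in 72 h buds. Of the 11 genes, only KS comp133298_c1 was called in 72 h buds against 0 h. Its mean went from 152 at 0 h to 74.5 at 72 h, a large part of the fall in the sum. It is not among the 7, since its lowest mean was 63.7 at 24 h.

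GA 2-oxidases inactivate bioactive GA and its precursors. GA2ox2 comp115178_c0 had 38.1, 43.1 and 32.7 normalized counts in 0 h buds, 88.8, 110.5, 65.3 and 80.6 in 6 h buds, 36.8, 41.1, 41.2 and 40.2 in 24 h buds and 27.5, 40.0, 39.9 and 26.0 in 72 h buds. All 6 h libraries were above all others, and the other time points overlapped. Its log2 fold change was 1.27 ± 0.18 at 6 h against 0 h (edgeR, adjusted p = 9.52e-06) and -1.16 ± 0.15 at 24 h against 6 h (adjusted p = 1.36e-06). No other GA 2-oxidase gene was called against 0 h.

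GA2ox1 comp102769_c0 had 18.6, 16.6 and 2.62 normalized counts in 0 h buds, 9.87, 2.06, 8.16 and 2.34 in 6 h buds, 69.2, 17.6, 0.644 and 2.23 in 24 h buds and 9.82, 0.571, 17.5 and 4.72 in 72 h buds. The libraries of all 4 time points overlapped, and those of 24 h spread the most. A call at 24 h against 6 h, at a log2 value of 2.36 ± 0.84 (edgeR, adjusted p = 0.0398), rested on 24 h replicate 1: without it the value was 0.82 (adjusted p = 0.488). It also ended without 6 h replicate 2, 3 or 4, at 1.86, 2.57 and 2.17 (adjusted p = 0.180, 0.0515 and 0.102).

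GA2ox2 comp109218_c0, with 0 to 8.20 normalized counts per library, was called lower at 24 h than at 6 h at a log2 value of -1.61 ± 0.54 (edgeR, adjusted p = 0.027), which ended without 24 h replicate 2 or 3 or 6 h replicate 2, at -1.28, -1.34 and -1.32 (adjusted p = 0.103, 0.0791 and 0.177). GA2ox8 comp121202_c0 at 72 h against 24 h had a log2 value of -0.49 ± 0.18 (adjusted p = 0.0367). KS comp120512_c0 in the same comparison had -0.59 ± 0.23 (adjusted p = 0.0473). Both calls were weak. That of GA2ox8 comp121202_c0 ended without any 1 of 24 h replicates 2 and 4 and 72 h replicates 1 and 3, at log2 values of -0.36 to -0.49 (adjusted p = 0.0599 to 0.151). That of KS comp120512_c0 ended without replicate 1 of any time point, without replicate 3 or 4 of 24 or 72 h, without 0 h replicate 2 and without 6 h replicate 4, at -0.51 to -0.59 (adjusted p = 0.0502 to 0.122). Both calls also ended under DESeq2, without a filter, with all contigs of the gene and in a fit of these 2 time points alone (adjusted p = 0.0503 to 0.168). GA2ox6 comp122686_c0 and GA2ox8 comp135176_c0 were not called in any comparison.

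**Figure D4:**
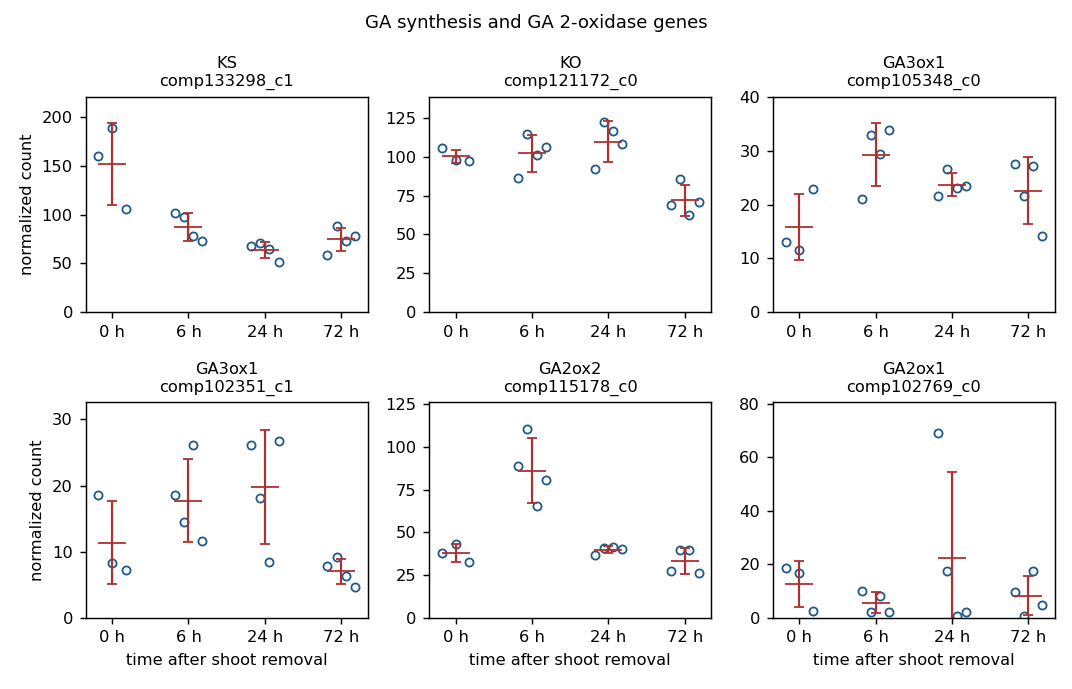
Normalized counts of 4 synthesis genes and 2 GA 2-oxidase genes (vertical axes, from 0, which cuts the lower bar for GA2ox1 at 24 h) against hours after shoot removal (0, 6, 24 and 72 h; horizontal axes); circles are libraries and red marks the mean ± SD. KS comp133298_c1 is highest at 0 h with a mean of 152, and GA2ox2 comp115178_c0 at 6 h with a mean of 86.3, while GA2ox1 has 1 library at 69.2.

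Other genes of the pathway lie outside the GA class of the annotation. A list of response regulators, transporters, GA-regulated peptides and further enzymes, matched by best Arabidopsis hit, gave 33 tested genes. Of these, 4 rose and 0 fell at 6 h against 0 h (edgeR; 5.74% of all genes rose and 5.80% fell), 10 rose and 4 fell at 24 h (15.7% of all genes rose and 16.8% fell), and 4 rose and 3 fell at 72 h (5.19% of all genes rose and 4.74% fell). A best hit to a large family does not single out the gene with the GA role.

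Genes closest to NPF3, a GA transporter in Arabidopsis, moved early. NPF3 comp138044_c1 had 119.9, 113 and 124 normalized counts in 0 h buds, 213, 234, 279 and 211 in 6 h buds, 277, 292, 331 and 209 in 24 h buds and 208, 204, 189.8 and 184 in 72 h buds, and no later library overlapped 0 h. Its log2 fold changes against 0 h were 0.96 ± 0.13, 1.22 ± 0.13 and 0.72 ± 0.14 at 6, 24 and 72 h (edgeR, adjusted p = 5.58e-06, 1.49e-08 and 0.00057). NPF3 comp129762_c0 and comp128910_c0 also rose, by log2 values of 1.00 ± 0.21 and 0.53 ± 0.11 at 6 h and of 1.03 ± 0.20 and 0.97 ± 0.11 at 24 h. Another NPF3 gene, comp137042_c0, was called lower at 24 and 72 h, but neither call held without 0 h replicate 3, at log2 values of -0.26 and -0.36 (adjusted p = 0.255 and 0.240), and that at 72 h also ended without 72 h replicate 2 or 4, at -0.58 and -0.51 (adjusted p = 0.0548 and 0.0514). Its call over the 4 time points (edgeR, adjusted p = 0.0111) ended without 0 h replicate 3 too (adjusted p = 0.0725).

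SCL3 is a GRAS protein that promotes GA responses and acts against DELLA in Arabidopsis. SCL3 comp120884_c0 had 112, 119 and 134 normalized counts in 0 h buds, 229, 240.4, 188 and 218 in 6 h buds, 199.7, 232, 238 and 253 in 24 h buds and 163, 140.2, 116 and 128 in 72 h buds. The 6 and 24 h libraries were above all those of 0 and 72 h, with log2 fold changes of 0.86 ± 0.12 and 0.91 ± 0.12 against 0 h (edgeR, adjusted p = 8.42e-06 and 5.83e-07). SCL3 comp106128_c0 was instead lower at 72 h than at 0 h, by a log2 value of -0.65 ± 0.14 (adjusted p = 0.00185). GAF1 comp120135_c0, a zinc finger factor that works with DELLA, rose at 24 h by 0.49 ± 0.10 on the log2 scale (adjusted p = 0.000469). Another GAF1 gene, comp125198_c0, was not called against 0 h, with means of 395, 441, 425 and 335 normalized counts at 0, 6, 24 and 72 h. It was lower at 72 h than at 6 and 24 h, by log2 values of -0.41 and -0.34 (edgeR, adjusted p = 0.00379 and 0.00593). SEC comp128610_c0, which adds O-linked N-acetylglucosamine to DELLA, rose at 24 h by 0.27 ± 0.08 (adjusted p = 0.0059).

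GASA peptides are small cysteine-rich proteins, many of them GA-regulated. GASA4 comp107575_c1 had 1158, 1309 and 1156 normalized counts in 0 h buds, 789.5, 800.4, 1126 and 1039.7 in 6 h buds, 380.1, 222, 262 and 415 in 24 h buds and 1668, 1485, 1821 and 1928 in 72 h buds. The 24 h libraries were the lowest and the 72 h libraries the highest, with no overlap between these and any other time point. Against 0 h its log2 fold change was -1.93 ± 0.15 at 24 h (edgeR, adjusted p = 8.71e-11). At 72 h it was 0.51 ± 0.15 (adjusted p = 0.0231), a call that ended without 0 h replicate 1 or 3 or 72 h replicate 3 or 4, at 0.46 to 0.48 (adjusted p = 0.0631 to 0.0778), while against 24 h the rise of 2.45 ± 0.14 was far larger than its error (adjusted p = 2.33e-13).

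GASA5 comp111524_c1 had 13.7, 16.6, 20.7 and 14.2 normalized counts at 72 h, against 12.1, 3.31 and 3.93 at 0 h, a log2 fold change of 1.27 ± 0.39 (edgeR, adjusted p = 0.0383). That call ended without 0 h replicate 2 or 3 or 72 h replicate 2 or 3, at 0.88 to 1.27 (adjusted p = 0.0985 to 0.263). GASA1 comp93786_c0, with 21 reads in the 24 h libraries and 1 read in those of 0 h, passed the filter on low values only through the 24 h libraries. It is among the 10 genes called higher at 24 h, and nothing is read from that call. Of the 10 GASA genes tested, 2 were called higher and 3 lower at 24 h (edgeR), where 15.7% and 16.8% of all genes were. GASA1 comp93786_c0 is 1 of the 2 called higher. At 72 h, 3 were higher and 1 lower, against 5.19% and 4.74%. GASA9 comp105180_c0 had means of 150 normalized counts at 0 h, 107 at 24 h and 284 at 72 h, called at both. At 24 h, GASA14 comp104129_c1 fell from 335 to 176, and GASA14 comp116270_c0 rose from 51.4 to 104. GASA2 comp119428_c1 fell from 239 at 0 h to 137 at 72 h. ELA1, a cytochrome P450 that inactivates GA in Arabidopsis, was the best hit of 8 tested genes, of which comp120701_c0 and comp113380_c0 rose at 24 h by 1.71 ± 0.40 and 1.58 ± 0.33 on the log2 scale (adjusted p = 0.00142 and 0.000422).

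**Figure D5:**
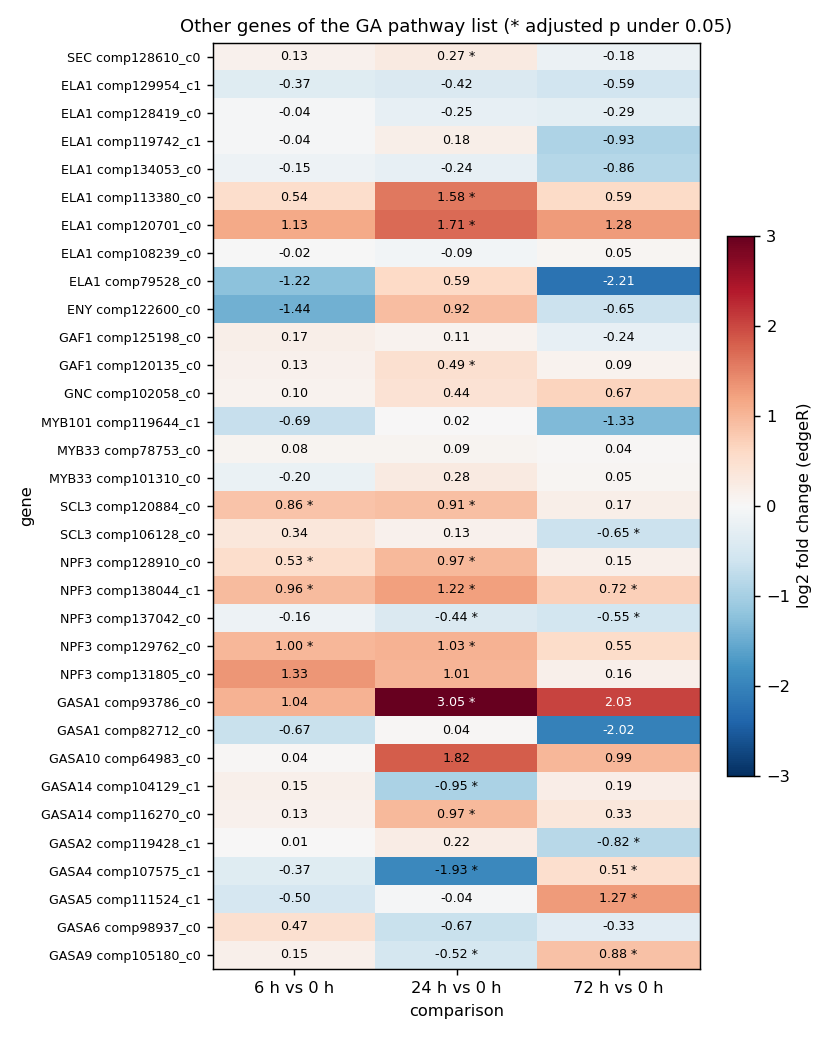
Log2 fold changes of the 33 other genes of the GA pathway list at 6, 24 and 72 h against 0 h (columns; edgeR), by gene (rows), where red is higher and blue lower than 0 h and an asterisk marks an adjusted p under 0.05. At 24 h GASA4 is at -1.93 and 3 of the 5 NPF3 genes are called higher, at 0.97 to 1.22.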

How the data were processed

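The table held, for 15 libraries, expected counts per contig and per gene (component), deposited without normalization. The authors built contigs from trimmed reads with Trinity, annotated them by BLASTX, and counted fragments of 1 strand with RSEM (submitters' processing notes and the study's methods; version not given in the sources used here). Whether the strand setting suits the kit was not tested. Columns of the authors' posterior probabilities of differential expression were not used.

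Expected counts of GA contigs were summed per gene and replaced that gene's row. Size factors came from 21790 genes with a count in all libraries. Genes with a mean normalized count above 2 at any time point were rounded to whole counts and fitted with edgeR 4.0.16 (R 4.3.3), time point as group, and p-values were adjusted over all 30231 genes per comparison. The model was tested on simulated data with the same spread for all genes and changes only in well-covered genes. That test does not cover GA genes with low counts. SE is the log2 fold change over the square root of F. Alternatives were TMM, DESeq2 1.42.0, limma 3.58.1 on log2(normalized count + 1), other filters and thresholds, all contigs of a gene, replicate number as a block, 2 time points only, and each library left out.

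Genes named in full were those called over the 4 time points or against 0 h, and of the pathway list up to 3 per class by size of change. Others are named as weak or contrary cases, and further called GASA genes by their means. Members and lists were chosen with earlier results of these data known. Precision is limited by pooled buds and by library totals of 1847115 to 8766393 expected counts.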

Additional observations from a re-analysis of the deposited data

Results flagged for a closer look

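In groups of 4 libraries, a library was singled out when its gap to the nearest other was, as a share of the group's range, above Dixon's 95% critical value. Of 105 groups of 35 genes, 7 were singled out, where chance gives about 1 in 20, or 5.25. Low DELLA-labelled genes gave 4 of them. RGA comp135206_c0 had 14.5 normalized counts in 24 h replicate 4 and 7.08 to 7.68 in the others. RGA2 comp119735_c1 had 13.7 in 72 h replicate 1 and 0 to 1.71 in the others, and RGA2 comp131931_c0 had 11.8 in 72 h replicate 4 and 0 to 1.71 in the others. RGL1 comp31255_c0 had 3.35 in 24 h replicate 4 and 4.51 to 4.54 in the others.

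Synthesis genes gave the other 3. KAO1 comp117699_c0 had 179 normalized counts in 6 h replicate 3 and 118 to 125 in the others. KS comp120512_c0 had 39.2 in 6 h replicate 3 and 20.6 to 23.4 in the others, and 27.4 in 72 h replicate 2 and 16.5 to 17.7 in the others. None of these genes was called against 0 h.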

How the results depend on the processing

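Of the 16 called changes against 0 h, 13 were called in every other fit and 0 reversed, and 12 of these also passed both stricter call rules. GA3ox1 comp105348_c0 at 6 h was lost under DESeq2, without a filter and without 4 single libraries; RGA comp133035_c0 at 24 h and SLY1 comp99102_c0 at 72 h were lost without single libraries. An adjusted p under 0.01 left out GA3ox1 comp105348_c0 and SLY1 comp99102_c0, and a 1.5-fold change left out RGA comp133035_c0, RGA2 comp121947_c1 and SLY1 comp99102_c0. A threshold of 0.01 left 7 GA genes called at 24 h against 6 h, not 13, and 4 at 72 h against 6 h, not 7. Asking for a 1.5-fold change left 7 at 72 h against 24 h, not 12, and 2 at 72 h against 6 h. With single libraries left out, calls at 72 h against 6 h ranged from 4 to 7, the lowest without 6 h replicate 2 or 72 h replicate 2. The pathway list at 72 h against 0 h had 4 calls at 0.01, not 7, and 4 to 8 with single libraries left out, the lowest without 0 h replicate 3. Other total counts stayed within 1.5 times. By direction, a 1.5-fold change left 2 GA genes lower at 24 h against 0 h, not 4, 4 lower at 24 h against 6 h, not 8, and 2 higher at 72 h against 24 h, not 4. The pathway list's alternatives were chosen after seeing the data.

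Replicate numbers are shared across time points, but no label ties them to a plant or day. Same-numbered libraries had correlations of -0.0312 to 0.301 in their deviations (median 0.0516, 5 of 21 pairs over 0.1), and 12 of 15 libraries correlated best with their own number. Libraries with different numbers had -0.233 to 0.105 (median -0.0189). Same-numbered libraries were thus somewhat more alike, and the main fit, which has no block, does not use this. Whether they shared a batch was not tested. With a replicate block, 15 GA genes were called over the 4 time points, 5 at 6 h, 8 at 24 h and 4 at 72 h against 0 h. The pathway list then had 6, 14 and 7 calls. Among the later comparisons, the calls of KS comp120512_c0 at 72 h against 24 h and RGA comp111494_c0 at 72 h against 6 h ended with the block (adjusted p = 0.0692 and 0.0588).

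Several DELLA, GID1B and GA 2-oxidase genes had means under 10 normalized counts at every time point, where small changes were not detectable at this depth. With 3 or 4 pools per time point, p-values measure the spread between pools. Labels rest on best hits and a de novo assembly.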

Other observations

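The contigs of a gene did not always share its counts in the same way. KAO1 comp117699_c0 had 118 of its normalized counts in 0 h replicate 3 on the contig seq2, which was at 0 in the other 14 libraries, where seq4 held nearly all counts. GA3ox1 comp105348_c0 had its contig seq3 at 0 in all 4 libraries of 72 h and at 25.9, 23.2 and 23.4 normalized counts in replicates 2 to 4 of 24 h, while seq1 had 23.2, 21.7, 25.7 and 11.2 at 72 h and was at 0 in those 3 libraries of 24 h. Sums over the GA contigs do not depend on how RSEM divides reads among those contigs, but they do depend on its division between GA and other contigs of the gene, as in GA2ox8 comp135176_c0, where a contig with no hit held 33.8% of the gene's counts. A difference between the contigs was not tested.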
